A study of Homo sapiens with 6 samples.

Results

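The imprinted DLK1-MEG3 locus of chromosome 14q32 was described through 9 of the 57341 named genes in the count table. They are DLK1, MEG3, MEG8, MEG9, RTL1 and DIO3 of the imprinted domain, and LINC00523, BEGAIN and WDR25, which lie on its side nearer the centromere. The locus was picked because the noncoding RNA LINC00523 was near absent from 1 group of libraries and present in the other. The other genes were taken by their position. The difference between the groups is therefore given for these 9 genes as a description, with no test.

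RNA came from H295R, a human adrenocortical carcinoma line that makes steroid hormones, and from H295R-PM-Ptc+, cells of that line that were selected by flow sorting for the Hedgehog receptor Ptch1 on their surface and expanded. Each population had 3 replicates, was grown in the same medium without treatment, and no engineered allele is stated for either. No source says whether the replicates came from separate cultures or sorts, so each p-value measures only the spread between these libraries. The fragments assigned to genes numbered 23264403 to 25813247 per library. Values are CPM, counts scaled to 1000000 fragments per library after TMM normalization of the library sizes, and levels are compared between genes only as CPM per kilobase of exon.

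PTCH1, the gene the cells were sorted for, goes against the labels of the count table. It had 21.3 ± 2.56 CPM in the H295R-labelled libraries and 12.2 ± 2.19 in the H295R-PM-Ptc+-labelled ones (SD, n = 3 each; log2 fold change -0.81, edgeR adjusted p = 0.0207). The study's own table of normalized values carries the group names the other way round in all 6 columns. Which names are right was not settled from the counts, and every direction here is that of the libraries as labelled. With the names exchanged, every difference between the groups given here would change its sign. Replicates within a group differed by more than counting error, with a chi-square per gene of 6.60 to 32.0 where counting error alone would give about 1. Of 12 adrenocortical markers 11 were tested and 2 were called higher in the H295R-PM-Ptc+-labelled libraries (CYP21A2 and SULT2A1), against 2.42% of all genes, and 0 lower. Their log2 fold changes were above 0 in 6 of 11 with a median of 0.006. With the replicate number as a block, 3 were called higher (STAR, CYP21A2 and SULT2A1) and 1 lower (CYP11A1), against 22.5% of all genes in either direction. The 12 had summed levels of 1044 to 1302 and 1145 to 1443 CPM. NR5A1 stood at 367 and 351 CPM in the groups, and CYP11B1 was near 0. Among the markers of chromaffin cells, the other adrenal cells known for DLK1, the catecholamine enzymes DBH and PNMT were at 0 in every library. The chromaffin list summed to 68.0 to 80.2 CPM in the H295R-labelled libraries and to 54.4 to 63.5 in the H295R-PM-Ptc+-labelled ones, nearly all of it CHGB. The part of these markers in the results was not tested.

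Imprinted genes are read only or mainly from a single parental chromosome, according to DNA methylation set in the germ line. At 14q32 the protein-coding genes DLK1, RTL1 and DIO3 are read from the paternal chromosome and the noncoding RNAs MEG3, MEG8 and MEG9 from the maternal one. DLK1 is a membrane protein of the Notch ligand family that marks progenitor cells, and in the adrenal cortex it is found in the outer, less differentiated cells. MEG3 is a long noncoding RNA that is often silenced in tumours. The counts do not show which parental chromosome the RNA came from.

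Promoter sequences were available from RefSeq (GRCh38.p14, the base build of the count table) for 7 of the 9 genes, all but DLK1 and MEG8. Those of LINC00523, on whose level the locus was picked, and of MEG3, the most abundant noncoding RNA of the domain, are shown 5′ to 3′, each from 250 bases before to 50 bases after a RefSeq start. Capitals mark TGACGTCA, the cAMP response element, TATAAA and CCAAT, each searched on both strands. Of these 2 windows only that of MEG3 held any of them, with no match overlapping another. The MEG3 window lies inside the MEG3 gene of the count table, which starts further upstream, at 100779410.
LINC00523, chr14:100657018-100657317, plus strand: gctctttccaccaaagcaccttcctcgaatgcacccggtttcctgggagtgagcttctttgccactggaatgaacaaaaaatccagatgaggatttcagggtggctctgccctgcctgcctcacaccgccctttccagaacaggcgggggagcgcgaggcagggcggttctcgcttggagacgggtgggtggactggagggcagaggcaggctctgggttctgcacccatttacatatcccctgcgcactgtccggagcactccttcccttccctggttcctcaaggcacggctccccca
MEG3, chr14:100825858-100826157, plus strand: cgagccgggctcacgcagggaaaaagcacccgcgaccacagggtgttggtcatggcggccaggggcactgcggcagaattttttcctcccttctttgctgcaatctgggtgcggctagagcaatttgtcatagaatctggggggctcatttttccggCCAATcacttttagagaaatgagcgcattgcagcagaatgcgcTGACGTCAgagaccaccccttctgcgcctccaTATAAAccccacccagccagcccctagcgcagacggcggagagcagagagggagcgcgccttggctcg

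Of 35116 promoter windows of this length, 1.85% held TGACGTCA, 11.5% held TATAAA and 34.6% held CCAAT. The dinucleotide CG, the target of DNA methylation, occurred 12 times in the LINC00523 window and 19 times in that of MEG3, against a median of 14 over all windows. The window of MEG9 held 4 and that of DIO3 28.

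LINC00523, a long intergenic noncoding RNA, lies on chromosome 14 (hg38, Ensembl annotation) from 100657250 to 100676069 on the plus strand, between BEGAIN and DLK1. Its 7 exon blocks cover 3311 bases. The H295R-labelled libraries held 2, 3 and 3 counts of it and the H295R-PM-Ptc+-labelled ones 22, 26 and 30. The groups did not overlap, and LINC00523 was the only one of the 9 genes near the limit of detection in just one of them. These are 0.108 ± 0.0208 and 1.07 ± 0.218 CPM (SD, n = 3 each). The summed counts of 78 and 8 gave a 9.81-fold ratio (95% exact interval for counting error only, 4.74 to 23.5). The fitted log2 fold change was 3.24 (standard error 0.361), and it lay between 3.07 and 3.37 on omitting single libraries. The RNA RP11-566J3.2, which shares 101 bases of exon with LINC00523 on the opposite strand, held at most 3 counts in any library. In bulk RNA, more cells with the transcript and more transcript per cell cannot be told apart.

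DLK1, on chromosome 14 from 100725705 to 100738224, was the most abundant gene of the locus. It ranked 159th of the 57341 genes by mean CPM per kilobase. The H295R-labelled libraries held 718.5, 636 and 749 CPM and the H295R-PM-Ptc+-labelled ones 1252, 1112 and 1256. All 3 H295R-PM-Ptc+-labelled libraries lay above the other 3. The means were 701 ± 58.4 and 1207 ± 82.3 CPM (SD, n = 3 each), a 1.72-fold difference (log2 fold change 0.78, standard error 0.0933). Leaving out any 1 library gave log2 fold changes of 0.72 to 0.84.

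The other paternally read genes had no counts. RTL1, a retrotransposon-derived protein of the placenta and muscle, and DIO3, the deiodinase that inactivates thyroid hormone, had 0 counts in each of the 6 libraries. With 0 of 147754441 fragments, levels of up to 0.0203 CPM are allowed over all 6 libraries, and 0.116 to 0.129 CPM in single ones. RTL1 is a single exon on the minus strand that shares bases with 5 microRNA genes on the plus strand, among them MIR127 and MIR433, which held at most 1 count each in a library. The high DLK1 counts thus stood beside RTL1 and DIO3 below the limit of detection in the same libraries.

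MEG3 lies 53.7 kb beyond the DLK1 start, from 100779410 to 100861031, and its 8 exon blocks cover 15769 bases. It had 555, 444 and 349 CPM in replicates 1, 2 and 3 of the H295R-labelled libraries and 632, 636 and 401 in the H295R-PM-Ptc+-labelled ones. The groups overlapped, replicate 3 was the lowest library of both, and the H295R-PM-Ptc+-labelled library was the higher one in 3 of 3 same-numbered pairs. The means were 449 ± 103 and 556 ± 134.5 CPM (SD, n = 3 each), a difference of 0.31 on the log2 scale (standard error 0.204), which ranged from 0.14 to 0.49 on omitting single libraries. The minus strand RNA RP11-123M6.2, which shares 289 bases of exon with MEG3, held at most 1 count in any library.

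MEG9, a noncoding RNA at the far end of the cluster (101069911 to 101072937), had 9.32, 7.12 and 5.70 CPM in replicates 1, 2 and 3 of the H295R-labelled libraries. In the H295R-PM-Ptc+-labelled ones it had 11.5, 11.2 and 6.13. As with MEG3, the groups overlapped, replicate 3 was the lowest of each, and 3 of 3 same-numbered pairs were higher in the H295R-PM-Ptc+-labelled library. The log2 fold change was 0.38 (standard error 0.253), between 0.22 and 0.61 on omitting single libraries.

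MEG8, the RNA that carries small nucleolar RNAs in its introns (100894770 to 100935999), had 2.88, 3.15 and 2.46 CPM in the H295R-labelled libraries. In the H295R-PM-Ptc+-labelled ones it had 4.38, 4.22 and 3.54. The groups did not overlap, and the log2 fold change was 0.51 (standard error 0.162), between 0.41 and 0.60 on omitting single libraries.

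BEGAIN, which encodes a protein of neuronal synapses, and WDR25, a protein with WD repeats, lie before LINC00523 (100537149 to 100587413 on the minus strand and 100376418 to 100530303 on the plus strand). BEGAIN was near the limit of detection, with 8 to 12 counts in the H295R-labelled libraries and 8 to 18 in the others. Its summed counts gave a 1.31-fold ratio (95% exact interval for counting error only, 0.792 to 2.18). WDR25 had 4.31 to 5.34 CPM and 4.92 to 5.58 CPM, and its log2 fold change of 0.09 (standard error 0.138) was -0.002 when H295R replicate 1 was left out. In both genes the groups overlapped. WDR25 shares 287 bases of exon with the far more abundant WARS on the opposite strand.

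**Figure D1:**
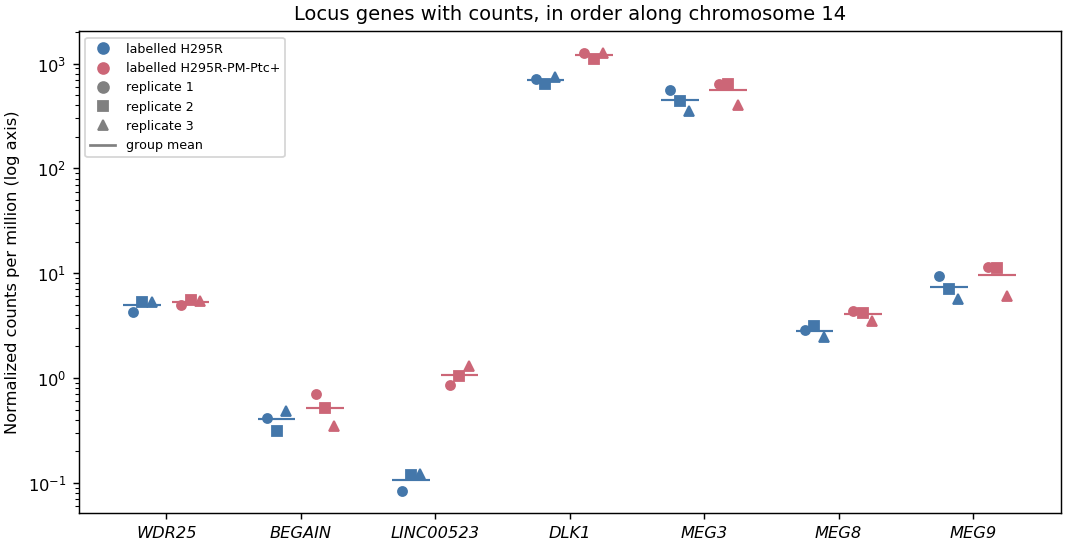
CPM (log axis) of the 7 locus genes with counts, in their order along chromosome 14, with 1 point per library, colors for the labelled groups, shapes for the replicate numbers and a line at each group mean. LINC00523, DLK1 and MEG8 show no overlap between the groups, while replicate 3 is the lowest of each group in MEG3, MEG8 and MEG9.

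The low-count filter kept 7 of the 9 genes, LINC00523 only through the group in which it was high, and left out RTL1 and DIO3. In LINC00523, DLK1 and MEG8 all H295R-PM-Ptc+-labelled libraries lay above the others, as in 12.4% of the 16710 genes kept. Since the locus was picked on this contrast, nothing is read from that count.

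Per kilobase of exon the levels ran in the order DLK1, MEG3, MEG9, MEG8, WDR25, then LINC00523 and BEGAIN. In the H295R-labelled libraries, DLK1 had 132 ± 11.0 CPM per kilobase, MEG3 28.5 ± 6.53, MEG9 2.79 ± 0.692, MEG8 1.28 ± 0.155 and WDR25 1.18 ± 0.137 (SD, n = 3 each). The gap between DLK1 and MEG3 and that between MEG3 and MEG9 were many times the spread, whereas MEG8 and WDR25 did not differ beyond it. In the H295R-PM-Ptc+-labelled libraries MEG8 (1.82 ± 0.201) lay above WDR25 (1.26 ± 0.0807) by more than the spread. BEGAIN stood above LINC00523 in the H295R-labelled libraries (0.0574 ± 0.0121 and 0.0325 ± 0.00630) and below it in the H295R-PM-Ptc+-labelled ones (0.0740 ± 0.0253 and 0.322 ± 0.0659). Exon lengths are summed over all transcripts of a gene name, so a gene such as MEG3 with many transcripts is set low on this scale.

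**Figure D2:**
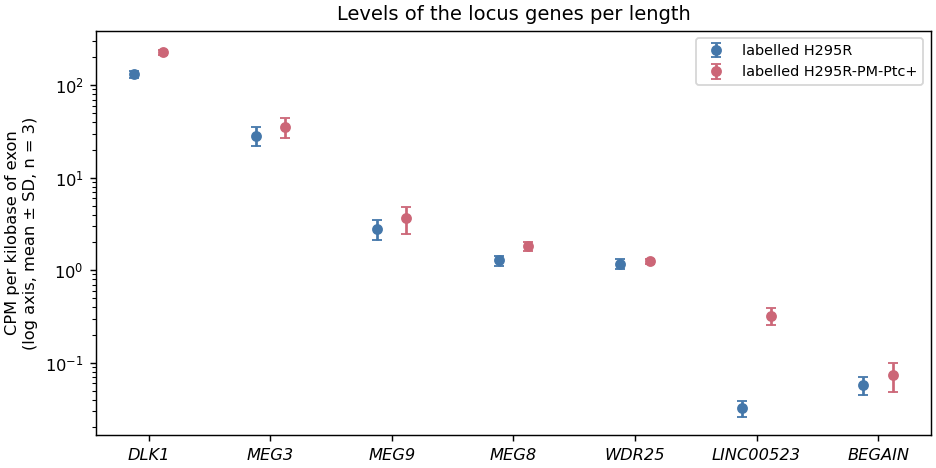
CPM per kilobase of exon (log axis) for the locus genes, ordered by level, as mean ± SD of 3 libraries in each labelled group. DLK1 is highest in both groups, and only LINC00523 and BEGAIN change places between them.

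Within a library, MEG9 followed MEG3 closely. The ratio of MEG9 to MEG3 per kilobase was 0.1003, 0.0958 and 0.0974 in the H295R-labelled libraries and 0.1086, 0.1049 and 0.0913 in the H295R-PM-Ptc+-labelled ones, so that the highest of the 6 was 1.19 times the lowest. The ratio of DLK1 to MEG3 was much less even. It was 3.84, 4.25 and 6.37 in the H295R-labelled libraries and 5.88, 5.19 and 9.30 in the others, a 2.42-fold range, and it was highest in replicate 3 of each group, where MEG3 was lowest. The ratio of MEG8 to MEG3 ranged from 0.0370 to 0.0628, a 1.70-fold range, on the 61 to 112 counts of MEG8 per library. The groups overlapped in each of these ratios. Between libraries with the same replicate number, DLK1 over MEG3 was higher in the H295R-PM-Ptc+-labelled library in 3 of 3 pairs, and each of the other ratios in 2 of 3.

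**Figure D3:**
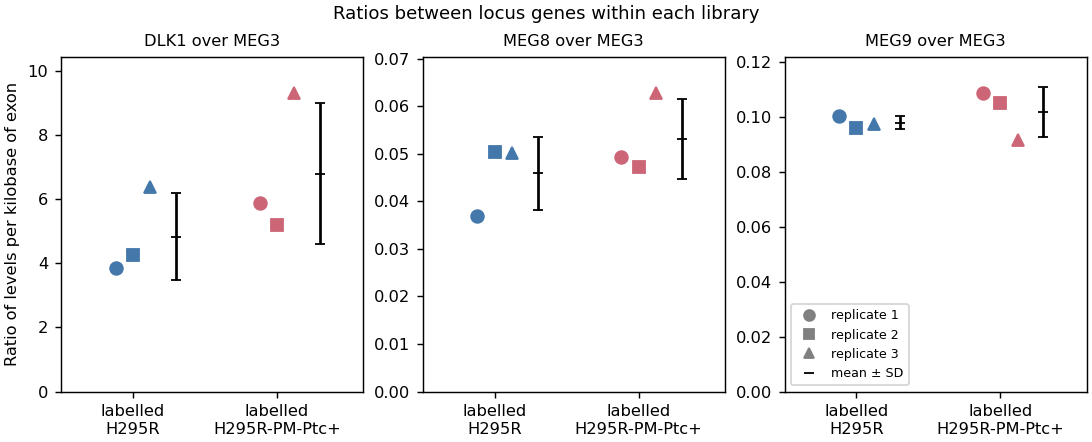
Ratios of the levels per kilobase of exon between pairs of locus genes within each library, with axes from 0, shapes for the replicate numbers and black bars for mean ± SD (n = 3). MEG9 over MEG3 stays between 0.0913 and 0.1086 in all 6 libraries, while DLK1 over MEG3 runs from 3.84 to 9.30.

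The contrast between replicate numbers played no part in the choice of the locus, so its genes could be tested in it. MEG3 was higher in replicate 1 than in the mean of replicates 2 and 3 by 0.41 on the log2 scale (standard error 0.0590, edgeR adjusted p = 8.2e-05), and MEG9 by 0.50 (standard error 0.116, adjusted p = 0.00376). DLK1 stood at 0.07 (standard error 0.0449, adjusted p = 0.256), MEG8 at 0.12 (adjusted p = 0.581), LINC00523 at -0.44 (adjusted p = 0.379), BEGAIN at 0.42 (adjusted p = 0.443) and WDR25 at -0.23 (adjusted p = 0.212). The 2 of 7 called here compare with 30.8% of all genes, a share near the background. With other settings the adjusted p of MEG3 reached at most 0.0176 and that of MEG9 0.0317. In a test for any difference among the 3 replicate numbers, chosen after the values were seen, MEG3 (adjusted p = 1.26e-05), MEG9 (0.00135) and DLK1 (0.0146) passed, against 26.0% of all genes.

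In each group replicate 3 was the low one for MEG3, at 77.7% of the group mean in the H295R-labelled libraries and 72.1% in the others. For MEG9 it was at 77.2% and 63.9%, and for MEG8 at 87.0% and 87.5%. DLK1 varied less, from 90.7% to 106.8% and from 92.1% to 104.1%, with replicate 2 lowest in both groups. Whether these differences come from the cells or from the preparation of the libraries was not tested.

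**Figure D4:**
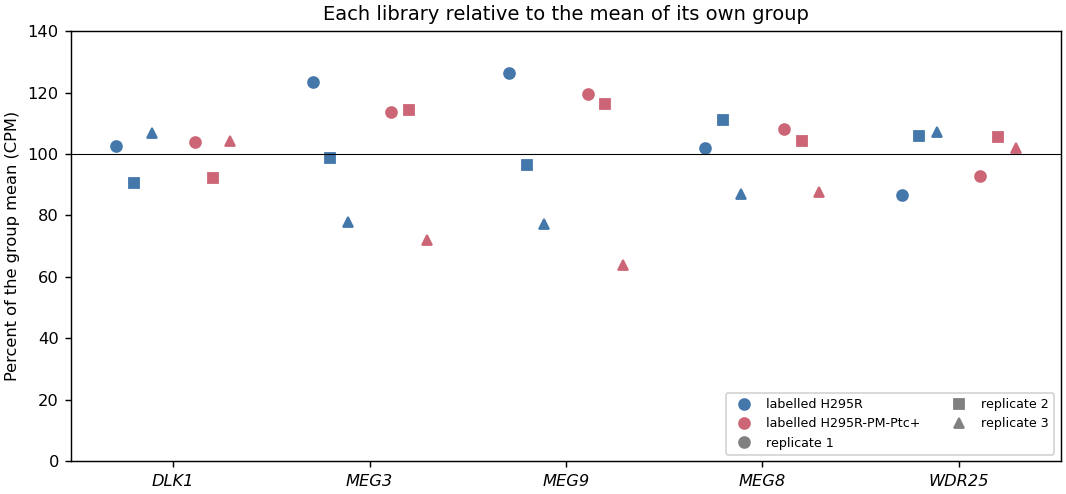
Each library as a percent of the mean CPM of its own labelled group for 5 locus genes, with shapes for the replicate numbers and a line at 100. Replicate 3 lies between 63.9% and 87.5% for MEG3, MEG9 and MEG8 in both groups, while DLK1 stays within 90.7% and 106.8%.

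Between DLK1 and DIO3 the table lists 115 further genes, of which 53 are microRNA genes, 38 small nucleolar RNA genes and 24 others, 107 of the 115 on the plus strand. Of these, 45 had a count in at least 1 library, and all 115 together held 174 to 254 fragments per library. Libraries of polyA RNA capture few small RNAs. The 4 with enough counts to be tested were SNHG23, SNORD114-26, AL132709.8 and MIR770. SNHG23, a host RNA of small nucleolar RNAs next to MEG8, had 2.34, 2.24 and 1.98 CPM in the H295R-labelled libraries and 3.32, 3.26 and 3.11 in the H295R-PM-Ptc+-labelled ones. The groups did not overlap, and the log2 fold change was 0.56 (standard error 0.152, edgeR adjusted p = 0.0854), which passed with the replicate block (0.0189). The other 3 had log2 fold changes of 0.16 (SNORD114-26, adjusted p = 0.737), -0.11 (AL132709.8, 0.922) and 0.17 (MIR770, 0.789). MIR770 lies inside MEG3 and shares no exon base with it.

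Of the 25 tested genes within 1 Mb of the outermost locus genes, edgeR called none at an adjusted p of 0.05, against 3.73% of all genes. An unadjusted p under 0.05 was reached by 2, both higher (SNHG23 and CCDC85C), against 1604 higher and 1282 lower of all 16710 genes. DESeq2 also called none, against 911 over all genes. The median log2 fold change of the 25 was 0.02, against 0.001 over all 16710 genes and -0.02 over the 525 tested genes of chromosome 14 other than the 9, which include these 25. The nearest tested genes beyond the 9 on either side, WARS on one side (0.10, standard error 0.0849, adjusted p = 0.607) and PPP2R5C on the other (0.02, standard error 0.0698, adjusted p = 0.942), had values close to 0. YY1, a zinc finger factor encoded in the same stretch, stood at -0.05 (adjusted p = 0.795). With the replicate block, 3 of the 25 passed (22.5% of all genes), CCDC85C (0.00117) and SNHG23 higher and ANKRD9 (0.0447) lower.

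**Figure D5:**
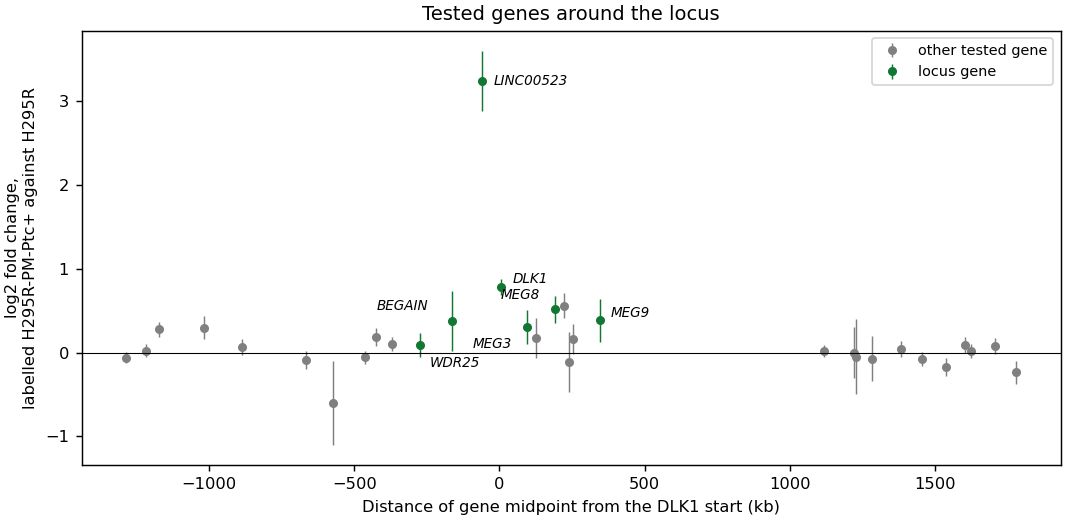
Fitted log2 fold change of the H295R-PM-Ptc+-labelled libraries against the H295R-labelled ones, with its standard error, for the 32 tested genes in the window, by distance of the gene midpoint from the DLK1 start in kb. LINC00523 (3.24) and DLK1 (0.78) stand above the other genes, whose values lie between -0.60 and 0.56.

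Genes that set or keep imprints were examined as a list of 16, of which 14 were tested. By the edgeR test 1 was higher and 1 lower in the H295R-PM-Ptc+-labelled libraries, against 3.73% of all genes in either direction, with a list median of -0.02 (log2). TRIM28, the corepressor that zinc finger proteins bring to methylated imprints, rose from a mean of 296 to 417 CPM (n = 3 each; log2 fold change 0.49, standard error 0.0943, adjusted p = 0.0249). AFF3, which binds the control region between DLK1 and MEG3, fell from 128 ± 14.4 to 90.4 ± 1.43 CPM (log2 fold change -0.50, adjusted p = 0.0208). DNMT1, the methyltransferase that copies methylation after replication, stood at 0.07 (adjusted p = 0.844), and ZFP57, a zinc finger protein that protects imprints, held at most 1 count in a library and was not tested. None of the 14 passed without the H295R-labelled replicate 2, H295R replicate 3, H295R-PM-Ptc+ replicate 2 or H295R-PM-Ptc+ replicate 3. In the contrast of replicate 1 with replicates 2 and 3, 13 of the 14 were called, with a median of -0.30 (log2), against 30.8% of all genes. With the replicate number as a block the same 2 of the 14 passed, TRIM28 (adjusted p = 7.4e-07) and AFF3 (6.9e-06), against 22.5% of all genes. The cause of the difference between replicates was not tested.

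Of 22 genes of Notch signaling, which DLK1 can dampen, 21 were tested, 2 were higher and 1 lower, against 3.73% of all genes in either direction, with a median of 0.03 (log2). The target genes HEY2 (0.53, standard error 0.0816, adjusted p = 0.00925) and HEYL (1.08, standard error 0.201, adjusted p = 0.0228) were higher in the H295R-PM-Ptc+-labelled libraries and the receptor NOTCH4 lower (-0.78, standard error 0.174, adjusted p = 0.0453). NOTCH1 (0.16, adjusted p = 0.757), the ligand JAG1 (0.39, adjusted p = 0.324) and the target HES1 (-0.11, adjusted p = 0.798) did not pass. Of these, only JAG1 passed with the replicate block (adjusted p = 0.0492). The count of 3 fell to 1 without H295R replicate 2 or H295R-PM-Ptc+ replicate 1 and to 0 without H295R replicate 3 or H295R-PM-Ptc+ replicate 3, and it was 9 (6 higher, 3 lower) with the replicate block, against 22.5% of all genes.

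None of 11 genes tied to MEG3, which are Polycomb subunits and genes of the p53 response, passed the edgeR test, against 3.73% of all genes. At an unadjusted p under 0.05 there were 2, both higher, against 1604 higher and 1282 lower of all 16710 genes. By DESeq2 1 passed, against 911 over all genes. EZH2, the Polycomb methyltransferase, stood at -0.06 (adjusted p = 0.803) and MDM2, which degrades p53, at 0.03 (adjusted p = 0.926). CDKN1A, a cell cycle inhibitor induced by p53, had 102 ± 11.3 and 133 ± 12.9 CPM (SD, n = 3 each; log2 fold change 0.38, adjusted p = 0.0882) and passed with the replicate block (1.32e-05). With the block 2 of the 11 passed, against 22.5% of all genes. Without H295R replicate 1, 1 did.

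Of 10 thyroid hormone genes other than DIO3, 7 were tested and none passed the edgeR test, against 3.73% of all genes. At an unadjusted p under 0.05 there were 2, both lower, against 1604 higher and 1282 lower of all 16710 genes. By DESeq2 1 passed, against 911 over all genes. The median of the 7 was -0.32 (log2). DIO2, the deiodinase that activates thyroid hormone and the only deiodinase with counts here, had 10.3 ± 1.41 and 8.27 ± 0.383 CPM (SD, n = 3 each; log2 fold change -0.32, adjusted p = 0.242). With the replicate block 3 of the 7 passed (22.5% of all genes), all lower, namely the receptor THRB (-0.64, adjusted p = 0.00197), the thyroid hormone target KLF9 (-0.58, adjusted p = 0.00439) and DIO2 (0.0472).

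Imprinted genes of other chromosomes were compared with the locus as a list of 26. Of the 23 tested, 4 were higher in the H295R-PM-Ptc+-labelled libraries by the edgeR test and 0 lower, against 2.42% and 1.32% of all genes. These were GRB10 (1.49, adjusted p = 0.00132), H19 (0.79, adjusted p = 0.0317), MAGEL2 (0.65, adjusted p = 0.0249) and PLAGL1 (0.36, adjusted p = 0.0265, all log2). IGF2, the growth factor next to H19, stood at 0.32 (adjusted p = 0.129) and passed with the replicate block (0.00115). PEG3 stood at -0.10 (adjusted p = 0.870) and did not pass with the block (0.240). The count of 4 was 1 without H295R replicate 2, H295R replicate 3, H295R-PM-Ptc+ replicate 2 or H295R-PM-Ptc+ replicate 3, and 11 of 23 (7 higher, 4 lower) with the replicate block, against 22.5% of all genes. The list median was 0.09 (log2).

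The tested genes whose log2 CPM followed DLK1 most closely over the 6 libraries were SYP, ACKR3, SSTR3, SERPINB8 and ALDH16A1, with Pearson correlations of 0.999 to 0.994. For LINC00523 they were SEMA6A, CHL1, MITF, FAR2 and MTSS1 (0.999 to 0.997). None of the 10 lies on chromosome 14. The 6 points share the difference between the groups on which LINC00523 was picked, so its list and its correlation with DLK1 largely restate that choice, and 282 genes had a correlation over 0.95 with DLK1 and as many with LINC00523. Within the locus, DLK1 correlated at 0.962 with LINC00523, 0.783 with MEG8, 0.367 with MEG3 and 0.360 with MEG9, and MEG3 at 0.993 with MEG9.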

How the data were processed

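RNA of 3 libraries labelled H295R and 3 labelled H295R-PM-Ptc+ was read from both ends of stranded libraries (an mRNA kit in the study's methods, a total RNA kit and polyA RNA in the labels). The authors aligned reads to hg38 with STAR 2.4.0a, used featureCounts with an Ensembl annotation to count fragments by gene name, each multiply mapped read once at its primary alignment, and deposited the raw counts. Subread 1.5.0-p3 is given in the submitters' processing notes. A row that names no gene held no counts and was left out.

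The test was that of edgeR 4.0.16 under R 4.3.3 (genes kept by filterByExpr, TMM factors, quasi-likelihood F-test, two-sided, Benjamini-Hochberg over 16710 genes). The replicate contrast used group and replicate number as terms. On counts simulated from these libraries with 200 genes changed 2-fold, 87.0% were recovered for the groups (2.79% of calls false, 16511 genes) and 85.5% for the replicate contrast (4.47%, 16505 genes). In the simulation for the groups no gene differed between replicate numbers, unlike in these libraries. Its 87.0% is therefore no measure of what the test of the groups recovers here. Levels per kilobase used the deposited exon lengths, and standard errors came from the F statistic.

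Same-numbered replicates of the groups share a library code (1801, 3001 or 3101). Their deviations from the mean of each group had correlations of 0.497, 0.307 and 0.228 over genes. Those of replicates with unlike numbers ranged from -0.352 to 0.150, so the pairing was least distinct between replicates 2 and 3. The study's methods name no block, so the replicate number entered as a block in an alternative only. The other alternatives were DESeq2 1.42.0, relative log expression size factors, other filters and leaving out each library. The rule for named genes took all genes of the locus, called neighbours, the called genes of each list (up to 5) with a few defining ones, PTCH1, and the 5 genes most correlated with DLK1 and LINC00523. The neighbours and YY1, and THRB and KLF9 (called only with the block), were named after their values were seen, as were overlapping genes and single markers. The locus and the lists were chosen with earlier results of these data known. Tables were read with pandas 2.3.3 and drawn with matplotlib 3.10.9.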

Additional observations from a re-analysis of the deposited data

How the results depend on the processing

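The level of LINC00523 rests on 2 to 30 counts per library, RTL1 and DIO3 on none, and single libraries decided many calls. Over all genes 624 differed between the groups, 1111 with no filter on low counts and 3758 with the replicate block, and 219 to 810 when single libraries were omitted. The counts with single libraries omitted were 0 to 2 for the imprint regulators, 0 to 3 for the Notch genes, 0 to 1 for the genes tied to MEG3, 0 to 0 for the thyroid hormone genes and the neighbours, and 1 to 4 for the other imprinted genes. The replicate block gave 3 neighbours (none without it), 9 Notch genes (3), 2 genes tied to MEG3 (none), 3 thyroid hormone genes (none) and 11 other imprinted genes (4), and 2 imprint regulators as before. DESeq2 and the fit with no filter on low counts each gave 1 gene tied to MEG3 and 1 thyroid hormone gene. Replicate 1 differed from replicates 2 and 3 in 5139 genes by edgeR, 3004 by DESeq2 and 3306 to 5237 with single libraries omitted, while 2 genes of the locus passed in each of these fits. The cause of these shifts was not tested. The fold changes of DLK1, MEG3, MEG8, MEG9, LINC00523 and BEGAIN kept their sign in every alternative run, and that of WDR25 in 11 of 12, all but that without H295R replicate 1 (-0.002).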
